A study of Mus musculus with 6 samples.

Results

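The long cluster of olfactory receptor genes on mouse chromosome 2 was described here as 229 tiled regions of a DNA methylation array, out of 22574 regions in all. A region was a run of 3 or more probes with no more than 500 bp from one start to the next, and the 229 regions are those between 85 and 90.1 Mb of the chromosome in the mm9 build that the array files use. They held 1621 of the 1648 probes in that window, and the other 27 probes stood outside any run. The regions held 3 to 9 probes (median 8), spanned 465 to 1796 bp (median 1627 bp) and lay a median of 17388 bp apart, from position 85036363 to position 90094138.

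The arrays measured hypothalamus, the brain area that governs feeding, from 16 week old mouse offspring of 2 groups of dams. The inulin group had 3 arrays, from offspring whose dams were labelled as treated with inulin, a fermentable plant fibre. The obesity group had 3 arrays, from offspring of dams labelled as obese in the sample titles and as fed a high fat diet in the group field. On each array, DNA pulled down with an antibody to methylated cytosine (MeDIP) was labelled with Cy5 and the input DNA of the same sample with Cy3. The labels give no strain, sex or litter, do not say whether the inulin dams were also obese or on the high fat diet, and do not say whether a sample was 1 animal or a pool, and p-values therefore reflect the sample-to-sample spread of these arrays alone.

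Olfactory receptors are G protein-coupled receptors that bind odorants. Each mature olfactory sensory neuron uses a single allele of the family, and the other copies, like the whole family in most other tissues, are kept silent in compacted chromatin. Their genes stand in long AT-rich arrays with few CpG sites. Because the antibody binds methylated cytosine, the amount of DNA it pulls down depends on how many methylated CpG sites a fragment holds, so a low MeDIP over input ratio in CpG-poor DNA is not by itself a low methylation level. On tiling arrays of this make, probes in AT-rich sequence are usually made longer so that all probes melt at similar temperatures.

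Neither gene names nor probe sequences are given in the array files, so no region was given a gene name and the label of the cluster was not checked region by region. In the RefSeq gene table for the later build GRCm38.p6, the run of 225 protein-coding genes between Lrrc55 and Ptprj on chromosome 2 held 222 olfactory receptor genes, and the other 3 were Fads2b, Pramel7 and Pramel6. RefSeq promoter windows (250 bp before to 50 bp after the annotated start) were at hand for 186 of these receptor genes, as 187 promoters. Whether the annotated start is the start of transcription was not checked, so a window may miss the promoter in use. The other 36 had no entry among the promoter windows. The 187 promoters had a median GC content of 32.0%, against 53.0% over the promoters of all other genes. Their median number of CpG sites in 300 bp was 1, against 7. No CpG site at all stood in 67 of the 187 promoters (35.8%), against 5.43% of all 32851 promoters. The 761 promoters of olfactory receptor genes elsewhere had a median GC content of 36.7%, a median of 1 CpG site and no CpG site in 32.7% of them.

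To show how little sequence for the antibody such promoters offer, 3 are printed 5' to 3' in the direction of the gene, with CG in capitals. Olfr1212 (chr2:88958218-88958517, plus strand, 40% GC) had the most CpG sites of the set, 7. Olfr1096 (chr2:86874753-86875052, minus strand, 32.0% GC) stands at the median with 1, and Olfr1132 (chr2:87635696-87635995, minus strand, 18.3% GC) had none and the lowest GC content. In Olfr1212 and Olfr1132 the last 50 bp, those after the annotated start, begin with ATG, the letters of a start codon. These windows may therefore be set on the start of the coding sequence and not on that of transcription. The coordinates are those of GRCm38.p6 and cannot be set beside the mm9 positions of the array regions.
Olfr1212: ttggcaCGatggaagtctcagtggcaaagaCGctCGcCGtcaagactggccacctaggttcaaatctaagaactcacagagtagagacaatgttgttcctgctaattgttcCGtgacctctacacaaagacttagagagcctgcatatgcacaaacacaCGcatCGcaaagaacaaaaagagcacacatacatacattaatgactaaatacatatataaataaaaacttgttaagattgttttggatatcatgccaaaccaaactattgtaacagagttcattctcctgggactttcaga
Olfr1096: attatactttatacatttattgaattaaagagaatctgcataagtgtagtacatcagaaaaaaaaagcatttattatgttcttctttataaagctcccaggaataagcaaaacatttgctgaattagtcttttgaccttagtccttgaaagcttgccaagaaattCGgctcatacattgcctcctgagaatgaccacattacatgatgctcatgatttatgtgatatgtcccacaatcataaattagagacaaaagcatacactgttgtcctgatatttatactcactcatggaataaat
Olfr1132: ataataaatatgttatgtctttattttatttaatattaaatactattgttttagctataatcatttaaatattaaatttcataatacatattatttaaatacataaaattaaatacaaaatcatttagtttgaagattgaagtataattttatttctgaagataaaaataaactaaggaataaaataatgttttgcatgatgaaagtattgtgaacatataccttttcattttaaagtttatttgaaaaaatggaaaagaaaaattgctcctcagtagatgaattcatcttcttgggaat

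The letters TAATTA, a homeodomain core motif that reads the same on both strands, stood in 46 of the 187 receptor promoters (24.6%), against 17.1% of the promoters of olfactory receptor genes elsewhere and 5.29% of all promoters. The letters CCCNNGGG, the core of the motif of the Ebf factors of olfactory neurons, also the same on both strands, stood in 4 (2.14%), against 3.29% of the promoters of olfactory receptor genes elsewhere and 13.7% of all promoters. The motifs do not overlap in letters. These are counts of letters in one window per start, in sequences whose base composition differs, and they were not set against any array value. Since a window may miss the promoter in use, the counts do not show whether receptor promoters carry or lack either motif.

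The MeDIP signal was well above background, by the mark of the scanner software, at 77.4% to 79.6% of all probes on the inulin arrays, against at 77.3% to 85.7% on the obesity arrays, and the input signal at 94.4% or more of the probes on each of the 6 arrays. The interquartile range of the log2 MeDIP over input ratio was 1.37 to 1.39 on the inulin arrays, against 1.62 to 1.89 on the obesity arrays, so each obesity array was spread more widely than each inulin array. Slide 1 held the 3 inulin arrays, slide 2 held obesity arrays 1 and 3, and slide 3 held obesity array 2, so slide and group cannot be told apart. Ratios and channel signals below are log2 values with the array median at 0, and each difference is inulin minus obesity.

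The receptor regions lay low in both channels and lowest in MeDIP. The median ratio over the 229 regions was -0.83, -0.78 and -0.59 on inulin arrays 1, 2 and 3, against -0.96, -1.31 and -1.08 on obesity arrays 1, 2 and 3. Each of the 6 medians was below 0, and the 3 inulin medians all stood above the 3 obesity medians. Averaged over the 6 arrays, the median region level of the ratio was -0.91, against -0.048 over all other regions, and 220 of the 229 regions (96.1%) lay below 0, against 53.4% of the others. The median input level was -1.34, against 0.057 over all other regions, and the median MeDIP level was -2.24, against 0.070.

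On the linear scale of the deposited signals, the median MeDIP intensity of the cluster's probes was 105.4, 109.2 and 91.1 on the inulin arrays, against 102, 123 and 88.9 on the obesity arrays. The median input intensity of the same probes was 259, 255 and 208 on the inulin arrays, against 257, 343 and 247 on the obesity arrays. Over the probes of all other regions, the median MeDIP intensity was 559 to 566 on the inulin arrays, against 525 to 751 on the obesity arrays. The cluster therefore gave a small share of the usual MeDIP signal on every array of both groups.

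**Figure D1:**
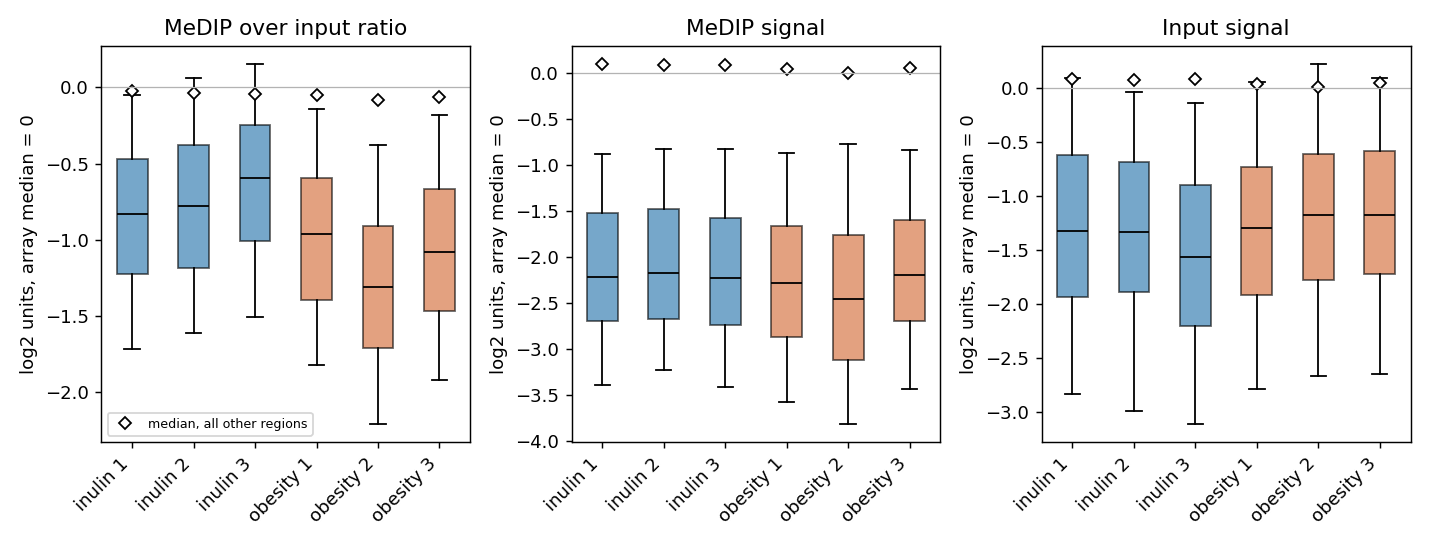
Boxes give the log2 MeDIP over input ratio, MeDIP signal and input signal of the 229 receptor regions on each array (line, median; box, quartiles; whiskers, 5th and 95th percentiles), with diamonds at the median of all other regions. The diamonds stay near 0 while every median of the cluster lies below, from -0.59 to -1.31 in the ratio, and the inulin boxes stand above the obesity boxes in the ratio.

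Much of this signal was near the limit of detection. MeDIP spots that were not well above background, called dim here, made up 57.4% of the cluster's spots, against 19.8% in all other regions. By array the dim share was 58.4%, 59.3% and 61.4% on the inulin arrays, against 56.8%, 48.4% and 59.9% on the obesity arrays, so obesity array 2 had the fewest. The input was dim at 20.5% of the cluster's spots, against 4.42% in all other regions. Signals that were not positive and significant against background, which the software sets to a stand-in value, made up 26.6% of the MeDIP spots, against 4.32%.

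Every region of the cluster held at least 1 probe whose MeDIP signal was dim on some array. In 145 of the 229 regions, under 50% of the MeDIP spots were well above background, and in 3 regions no MeDIP spot was. In 9 regions at least 1 group had no spot well above background in a channel, and no ratio difference is given for these 9.

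Probes in the cluster were long. Their mean length was 56.2 bp, against 49.1 bp in all other regions, and 54.9% of them had the full 60 bp, against 12.6%. The dim share climbed with length, at 12.1%, 29.4%, 45.6% and 81.1% for probes of 45 to 49, 50 to 54, 55 to 59 and 60 bp. In the rest of the array the same bands had 9.49%, 25.6%, 34.2% and 59.5%. The ratio level was -0.33, -0.89, -1.07 and -1.03 in the 4 bands of the cluster, against 0.32, -0.55, -0.88 and -1.20 in the rest of the array. Within the 45 to 49 bp band, the 263 probes of the cluster were thus lower in median than others of their length. The cluster's probes of 50 to 54 and 55 to 59 bp were also lower, by a smaller margin. In the 60 bp band the 890 probes of the cluster were not lower.

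**Figure D2:**
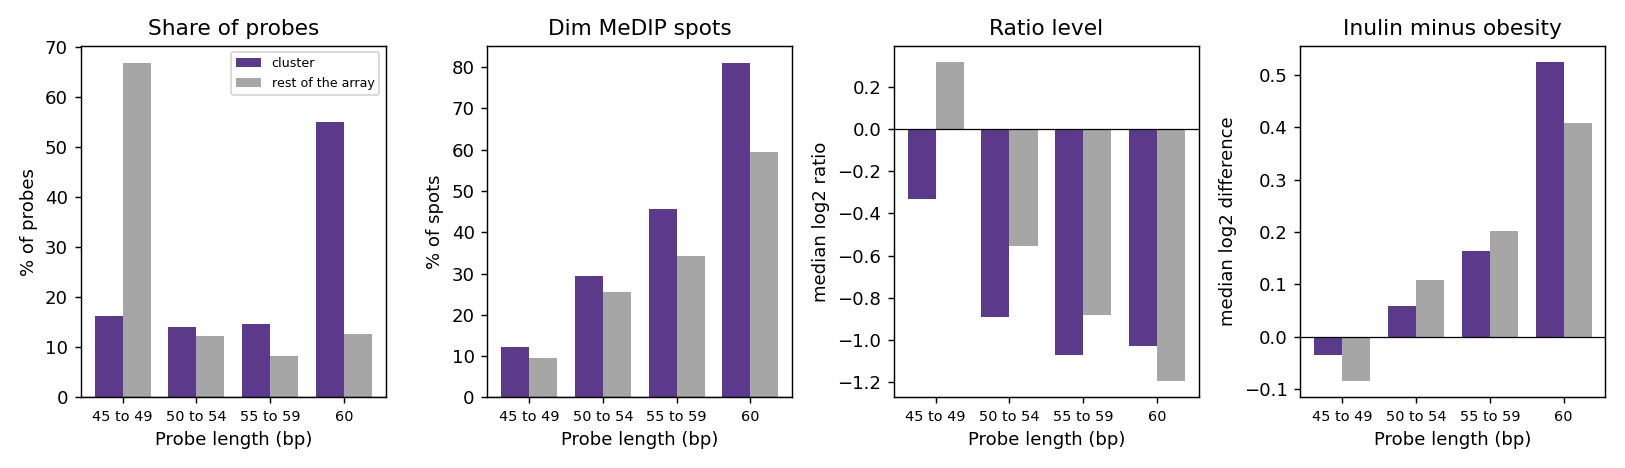
Bars give, for 4 bands of probe length, the share of probes, the share of dim MeDIP spots, the median log2 ratio and the median log2 difference (inulin minus obesity), with the cluster left of the rest of the array. Dim spots and the difference both climb with length, to 81.1% and 0.52 at 60 bp in the cluster.

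The groups were compared to ask where in the cluster the ratio of the inulin arrays differed from that of the obesity arrays. The inulin ratio was higher at 70 of the 229 regions (30.6%) at an adjusted p under 0.05 (limma, with p-values adjusted over every region of the array by the Benjamini-Hochberg method), against 5.61% of all regions. A lower ratio was called at 1 region (0.437%), against 1.81% of all regions. The difference was above 0 in 217 of the 229 regions (94.8%), with a median of 0.35, against 0.033 over all regions, and SEs of 0.072 to 0.28. The 70 regions differed by 0.32 to 1.14 (median 0.59) with adjusted p of 0.0137 to 0.0496 by limma, and for 3 of them no difference is given singly. The 158 regions without a call had a median difference of 0.26.

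At an unadjusted p under 0.05, 150 regions of the cluster (65.5%) were higher and 1 was lower, against 19% and 9.6% of all regions. The 3 inulin arrays all lay above the 3 obesity arrays at 134 regions (58.5%), against 20.8% of all regions, and all lay below them at 1 region, against 14.2%. With slide as a random block (estimated correlation 0.289), limma called 0 regions of the cluster, with 123 higher and 1 lower at an unadjusted p under 0.05, and 0 of all 22574 regions. Without inulin array 1, 2 or 3 limma also called 0 regions of the cluster, with 150, 123 and 113 higher at an unadjusted p under 0.05, and again 0 of all regions. Without obesity array 3 it called 30 higher (13.1%) and 0 lower, against 2.29% and 0.509% of all regions. With the ratios of every array set to the same interquartile range, 25 regions were called higher and 1 lower, all 25 among the 70, against 2.31% and 2.13% of all regions, and the median difference was 0.15.

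At single probes, limma called 222 of 1602 (13.9%) higher and 19 (1.19%) lower, against 5.12% and 3.08% of all probes. With equal interquartile ranges these counts were 103 (6.43%) and 32, against 1.72% and 1.83% of all probes. The authors' deposited table, of unknown scale, gave 3 regions higher (1.31%) and 2 lower by the same test, against 0.97% and 1.54% of all regions. It gave 35 probes higher (2.16%) and 32 lower, against 1.2% and 1.68% of all probes, so its shares in the cluster were near those of the whole array. Probes of a region lie next to each other and are not independent.

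The median difference over the 229 regions was -0.19 in the input signal and 0.16 in the MeDIP signal, of opposite sign. The MeDIP value depended on the processing. It was -0.034 with quantile normalization, 0.0082 with equal interquartile ranges of the channel and 0.028 with normexp background correction. With 1 array left out it was 0.073 to 0.22. The input value was -0.22, -0.24 and -0.10 under the same 3 alternatives. Cluster medians of the input were -1.32, -1.33 and -1.56 on the inulin arrays, against -1.29, -1.17 and -1.17 on the obesity arrays. Those of MeDIP were -2.22, -2.18 and -2.23 on the inulin arrays, against -2.28, -2.46 and -2.20 on the obesity arrays. All inulin input medians lay below the obesity ones, and the MeDIP medians of the groups overlapped.

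With inulin minus obesity, the input difference was below 0 at 176 of the 229 regions and the MeDIP difference above 0 at 186. The input difference was the larger of the pair at 131. Over all 22574 regions of the array, the same counts were 9493, 14088 and 11088, so a MeDIP difference above 0 was common on the whole array. By limma, the input was called lower at 5 regions of the cluster (2.18%) and higher at 0, against 0.899% and 1.24% of all regions. At an unadjusted p under 0.05 the input was lower at 74 regions (32.3%) and higher at 5 (2.18%), against 8.8% and 15.6% of all regions. No call on the input was left in the cluster by limma without any 1 of the 6 arrays, or with slide as a random block. Under the block 5 were higher and 65 lower at an unadjusted p under 0.05. Input calls fell over all regions too, to 0.301% higher and 0.301% lower with the block. With 1 array left out they were 0.00886% to 0.638% higher and 0.0177% to 0.235% lower. On the MeDIP channel limma called 0 regions of the cluster, against 0.155% higher and 0.0975% lower of all regions, with 45 higher (19.7%) and 5 lower (2.18%) at an unadjusted p under 0.05, against 15.2% and 5.78% of all regions. The groups did not overlap in the input, with inulin lower, at 78 regions (34.1%), against 12.2% of all regions, and in MeDIP, with inulin higher, at 65 (28.4%), against 22.4%.

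Of the 70 regions with a higher ratio, 57 had a lower input together with a higher MeDIP signal in the inulin group, and in 49 the input difference was the larger. The median differences over these 70 were -0.34 in the input and 0.20 in MeDIP. Since both channels enter the ratio, these counts describe how the called ratios were made up.

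The difference lay mainly in probes whose MeDIP signal was dim. MeDIP was well above background on no array at 743 probes of the cluster (45.8%), on 1 to 5 arrays at 304 (18.8%) and on all 6 at 574 (35.4%), against 12.2%, 13.9% and 73.9% of the probes in the rest of the array. Mean probe lengths of the 3 classes were 59.2, 56.3 and 52.4 bp.

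For the 574 probes detected on all 6 arrays, the median ratio was -0.52, -0.45 and -0.27 on the inulin arrays, against -0.39, -0.51 and -0.45 on the obesity arrays. The groups overlapped, the median difference was 0.032, against -0.046 for such probes in the rest of the array, and limma called 23 of the 555 tested higher (4.14%), against 3.02%, and 10 lower. For the 304 probes in between, the median ratio was -1.29, -1.23 and -1.22 on the inulin arrays, against -1.40, -1.50 and -1.62 on the obesity arrays. The groups did not overlap there, with a median difference of 0.17, against 0.093 in the rest of the array. Of these probes 29 were called higher (9.54%), a share near the 8.45% of the rest, and 6 lower.

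For the 743 probes detected on no array, the computed ratio had a median of -0.94, -0.91 and -0.60 on the inulin arrays, against -1.32, -1.90 and -1.34 on the obesity arrays. Of the cluster's MeDIP spots 57.4% were dim and 26.6% not positive and significant, so the dim spots of these probes include measured low signals. The computed difference (median 0.58, with 170 or 22.9% called higher and 3 lower) is thus a difference of signals near the limit of detection. Undetected probes in the rest of the array had a median difference of 0.32, and 12.7% of them were called higher. For the 743 probes of the cluster the median MeDIP signal was -4.00, -3.96 and -3.99 on the inulin arrays, against -4.28, -4.71 and -4.10 on the obesity arrays. The median of all MeDIP spots that were not positive and significant lay at nearly the same heights, at -4.11, -4.03 and -4.05 on the inulin arrays, against -4.33, -4.99 and -4.15 on the obesity arrays. The floor was thus highest on the inulin arrays and lowest on obesity array 2, relative to the array median, and its part in the group difference was not tested.

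With only probes well above background in both channels on at least 2 arrays of each group, 121 regions of the cluster were left, of which limma called 3 higher and 4 lower, against 3.29% and 3.21% of all regions so filtered, and the median difference was 0.074. Among the 70 regions called higher, 56 (80%) had under 50% of their MeDIP spots above background, against 89 of the 158 regions without a call (56.3%). At least 3 probes with MeDIP above background on all 6 arrays were present in 28 of the 70, and none in 5.

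By length, the probe difference in the cluster was -0.035, 0.058, 0.16 and 0.52 in the 4 bands from 45 to 60 bp, against -0.086, 0.11, 0.20 and 0.41 in the rest of the array. In the 60 bp band the input difference was -0.30 and the MeDIP difference 0.37, against -0.18 and 0.27 in the rest of the array, so both had the same signs there. In that band 196 probes were called higher (22.1%), against 17.2% in the rest, and 2 lower. Within the regions, probes within 200 bp of the centre were longest (58.1 bp), most often dim (70.4%) and differed by 0.40, while those over 800 bp from it averaged 54.6 bp, were dim at 44.1% of spots and differed by 0.11. The ratio level itself was -0.82 at the centre and -1.01 beyond 800 bp. In the rest of the array, probe length stayed between 48.9 and 49.5 bp over the same distances.

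Across the 229 regions the difference correlated with the share of MeDIP spots above background at a Pearson r of -0.49 (Spearman -0.48), with mean probe length at 0.44 (0.41) and with the input level at -0.41 (-0.41). It correlated with the ratio level at only -0.13 (-0.11). The regions share the same 6 arrays and a base composition, so these values are descriptions.

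**Figure D3:**
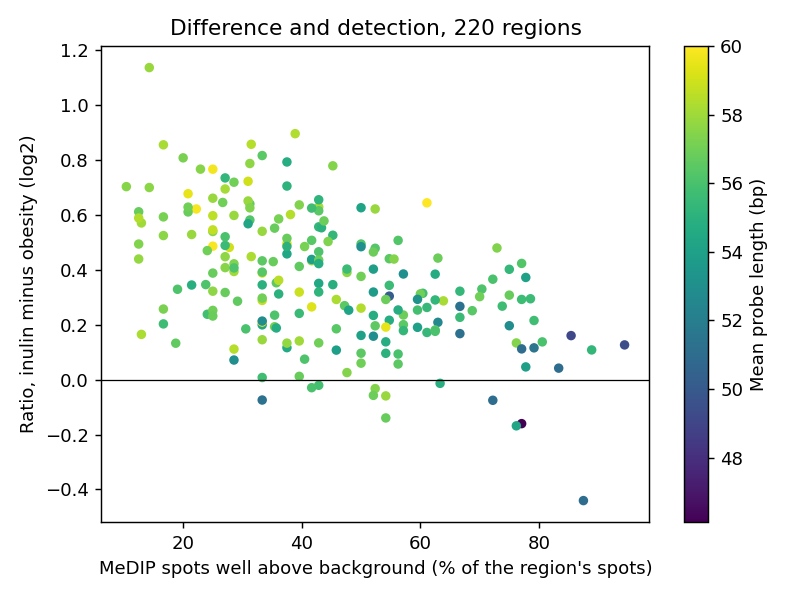
Each point is 1 of the 220 regions with a difference, placed by the share of its MeDIP spots well above background (x axis, % of spots) and its log2 ratio difference, inulin minus obesity (y axis), and coloured by mean probe length in bp. Differences above 0.6 lie mostly left of 50%, and the only called lower region stands at the far right, at 87.5% and -0.44.

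Along the chromosome no stretch of the cluster went the other way. In windows of 0.5 Mb the median difference ran between 0.23 and 0.47. The largest shares of called regions were 8 of 14 from 88 to 88.5 Mb (57.1%) and 15 of 31 from 86 to 86.5 Mb (48.4%), and the smallest were 0 of 2 at 90 to 90.5 Mb and 1 of 12 from 85 to 85.5 Mb (8.33%). The window from 85 to 85.5 Mb had an input level of -0.51 and a median of 56% of MeDIP spots above background, whereas the window from 88 to 88.5 Mb had -1.49 and 35.8%.

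The regions just outside the window lay on either side of 0 in the ratio. Just before it lay regions chr2:84926141-84927447 and chr2:84975269-84976844, with ratio levels of 0.27 and 0.11. The first member, chr2:85036363-85037950, had probes of 46.1 bp on average and a ratio of 0.058, -0.024 and 0.016 on the inulin arrays, against 0.033, 0.20 and 0.29 on the obesity arrays. Just after the window, chr2:90106094-90107615 and chr2:90122239-90123557 had levels of -1.58 and -1.02. The differences outside were 0.058 and 0.38 before the window and 0.40 and 0.33 after it, against a median of 0.35 in the cluster. In these outside regions 69.4% to 87.5% of the MeDIP spots were above background.

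**Figure D4:**
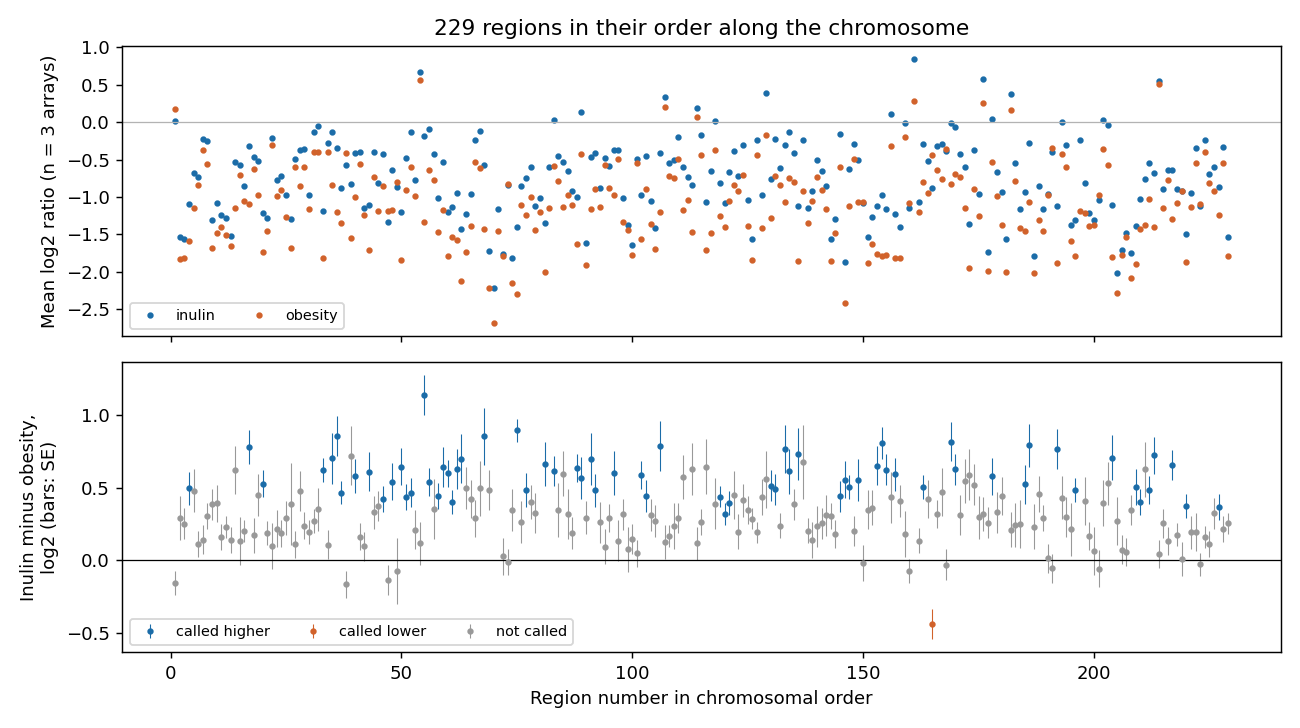
The upper panel gives the mean log2 ratio of each region in both groups (n = 3 arrays each) in the order of the regions along the chromosome, and the lower panel gives the difference, inulin minus obesity, with its SE for the 220 regions with a difference. Points of all 3 kinds are mixed along the cluster, and all but 12 of the 229 differences were above 0.

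The largest difference stood at chr2:86173012-86174650, the 55th region of the cluster. Its ratio was -0.052, -0.35 and -0.18 on the inulin arrays, against -1.15, -1.66 and -1.18 on the obesity arrays, with no overlap. The difference was 1.14 ± 0.14 (SE), with an adjusted p of 0.0145 by limma. The input was -3.36, -3.11 and -3.32 on the inulin arrays, against -2.64, -2.57 and -2.42 on the obesity arrays, a called difference of -0.72 (adjusted p 0.0345 by limma). MeDIP differed by 0.40 without a call. In this region 6 of the 7 probes were above background in MeDIP on no array, so the size of its difference rests on signals at the limit of detection. With normexp background correction the difference was 0.23 (adjusted p 0.0253 by limma), and in the authors' deposited table it was 0.16 on that table's unknown scale, without a call (adjusted p 0.125 by limma).

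Region 75, chr2:86531585-86532165, had a ratio of -1.51, -1.37 and -1.30 on the inulin arrays, against -2.36, -2.26 and -2.25 on the obesity arrays. The arrays of each group lay close together and far from the other group, with a difference of 0.90 ± 0.080 (SE) and an adjusted p of 0.0137 by limma. Only 3 probes make up this region, and MeDIP was above background in 33.3% of spots on the inulin arrays, against 44.4% on the obesity arrays. The difference was 0.42 with normexp and 0.49 with equal interquartile ranges, both called by limma, and was not called in the authors' deposited table (0.19, adjusted p 0.0848).

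Region 36, chr2:85885301-85887060, had a ratio of -0.49, -0.22 and -0.32 on the inulin arrays, against -1.02, -1.54 and -1.05 on the obesity arrays. Here too the groups stood apart, by 0.86 ± 0.14 (SE), with an adjusted p of 0.0197 by limma. Its input was -2.05, -2.30 and -2.28 on the inulin arrays, against -1.62, -1.40 and -1.57 on the obesity arrays, a called difference of -0.68, while MeDIP differed by 0.16 without a call. The call on the ratio was lost with normexp (difference 0.16, adjusted p 0.0512 by limma), with the median of the probes (0.65, adjusted p 0.109) and in the authors' deposited table (0.037, adjusted p 0.724).

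Region 68, chr2:86397796-86398963, had a ratio of -0.81, -0.74 and -0.19 on the inulin arrays, against -1.19, -1.83 and -1.28 on the obesity arrays (difference 0.86, adjusted p 0.0362 by limma). Inulin array 3 and obesity array 2 stood farthest apart, and 5 of the 6 probes were above background in MeDIP on no array. Without obesity array 3 the adjusted p by limma was 0.0592, and with equal interquartile ranges it was 0.0698 (difference 0.62). With normexp the difference was 0.32, still called.

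Region 169, chr2:88690809-88692567, had a ratio of -0.18, 0.081 and 0.077 on the inulin arrays, against -0.60, -1.13 and -0.74 on the obesity arrays (difference 0.82, adjusted p 0.0197 by limma). With only probes above background in both channels its difference was 0.016, and with normexp it was 0.17, both without a call (adjusted p 0.934 and 0.069 by limma). Region 154, chr2:88325991-88327247, had a ratio of -0.93, -1.14 and -0.87 on the inulin arrays, against -1.81, -1.95 and -1.60 on the obesity arrays (difference 0.81, adjusted p 0.0146 by limma). Neither region had overlapping groups. In region 154 the input was also called lower, by limma, with a difference of -0.59 (adjusted p 0.0398). With normexp its ratio difference was 0.21, still called, and in the authors' deposited table it was 0.070 without a call (adjusted p 0.649 by limma).

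The other regions among the 8 largest, chr2:89259211-89259804 and chr2:87512023-87513654, were called higher as well. In chr2:89259211-89259804 no MeDIP spot of the inulin arrays was above background, and in chr2:87512023-87513654 none of either group was, so neither is given a difference.

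The only region called lower was chr2:88607972-88608694, the 165th. Its ratio was -0.98, -0.81 and -0.87 on the inulin arrays, against -0.60, -0.23 and -0.50 on the obesity arrays, without overlap. The difference was -0.44 ± 0.10 (SE), 0.737 times the obesity ratio, with an adjusted p of 0.0391 by limma. Unlike most of the cluster, this region was bright, with 87.5% of its MeDIP spots above background and probes of 51 bp. MeDIP was -0.81, -0.69 and -0.81 on the inulin arrays, against -0.40, -0.32 and -0.42 on the obesity arrays, and the input differed by only 0.067. The MeDIP difference of -0.39 missed the threshold (adjusted p 0.0889 by limma).

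**Figure D5:**
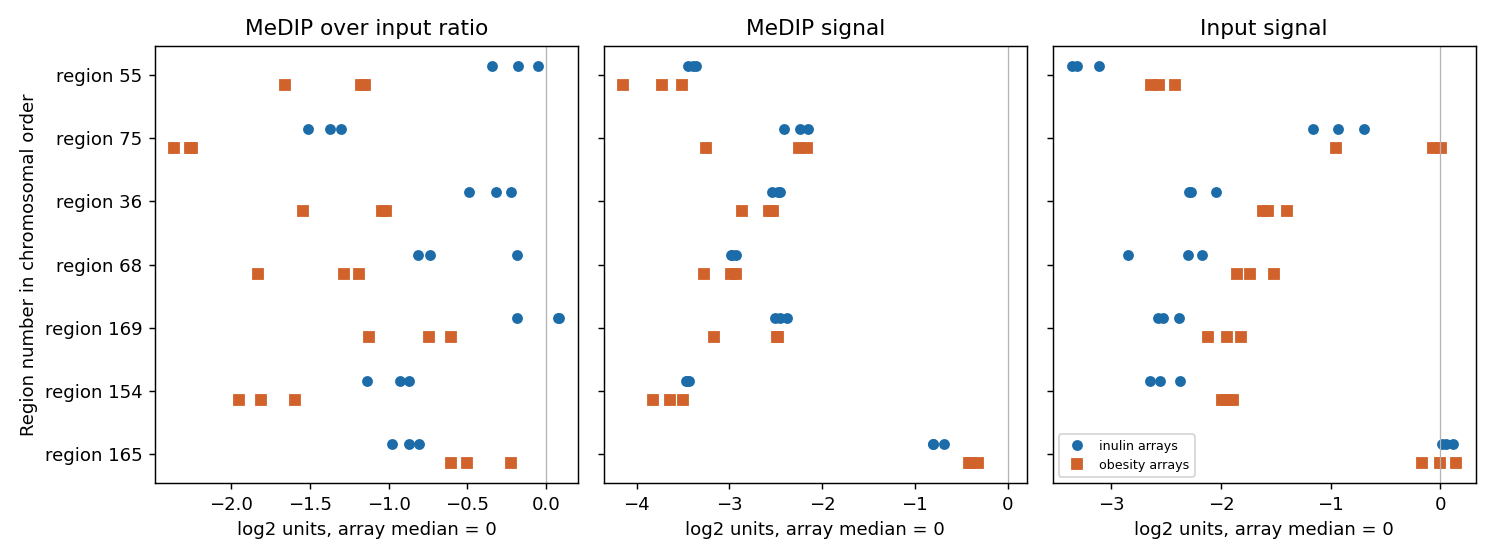
For the 6 regions with the largest higher ratios that have a difference and for the 1 lower region (bottom row), points give each array's log2 ratio, MeDIP signal and input signal, with inulin arrays (circles) above obesity arrays (squares). In the upper 6 rows the groups stand apart in the ratio, and in the bottom row they stand apart in the ratio and in MeDIP the other way round.

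Beside regions 55, 36 and 154, the input was called lower at chr2:85818269-85819803 and chr2:86038416-86040133. The naming rule did not pick chr2:86038416-86040133, which is named here after its values were seen. At chr2:85818269-85819803 the input was -1.92, -1.83 and -2.23 on the inulin arrays, against -1.29, -1.18 and -1.02 on the obesity arrays. The groups did not overlap (difference -0.83, adjusted p 0.0398 by limma). MeDIP differed by -0.23 in the same direction, so the ratio was higher by 0.62 although MeDIP was not. At chr2:86038416-86040133 the input differed by -0.50 (adjusted p 0.043 by limma) and MeDIP by -0.091.

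Only 9 of the 229 regions had a ratio level above 0. The highest was chr2:86154950-86156616, with 0.55, 0.89 and 0.58 on the inulin arrays, against 0.69, 0.23 and 0.76 on the obesity arrays. The groups overlapped (difference 0.12, adjusted p 0.64 by limma), and the input was low, at -2.86. With only probes above background in both channels its difference was -0.37, with an adjusted p of 0.0414 by limma, the opposite direction.

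Region chr2:89684642-89685872 reached its level of 0.53 at brighter signals. Its ratio was 0.36, 0.67 and 0.62 on the inulin arrays, against 0.51, 0.43 and 0.60 on the obesity arrays, and 5 of its 6 probes were above background in MeDIP on all 6 arrays. The difference of 0.042 was smaller than its SE of 0.096. Region chr2:88828017-88829613 had a level of 0.42 (difference 0.32, adjusted p 0.124 by limma), and chr2:88542184-88542688, with a level of 0.56, had no MeDIP spot of the obesity arrays above background.

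At the low end, chr2:86479387-86479856 had a level of -2.46, with an input near the array median (-0.39) and no MeDIP spot of the inulin arrays above background. Region chr2:89457915-89458447 had -2.32, -1.93 and -1.82 on the inulin arrays, against -2.19, -2.63 and -2.05 on the obesity arrays, with overlap and no call. Region chr2:88114707-88115769 had -1.85, -1.86 and -1.89 on the inulin arrays, against -2.15, -2.73 and -2.38 on the obesity arrays, and was called higher (difference 0.55, adjusted p 0.0374 by limma). That call was lost with equal interquartile ranges (difference 0.060, adjusted p 0.66 by limma), with quantile normalization (0.19, adjusted p 0.214) and in the authors' deposited table (0.0041, adjusted p 0.983). The region stands out among the called regions by an input well above the array median, at 0.77, that differed by -0.12. Region chr2:86530631-86531100 had a level of -1.98 and no call.

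Several regions tied for the most probes, with 9 each, and the first 2 along the chromosome were taken. Of these, chr2:85600032-85601823 differed by 0.17 and chr2:85744721-85746457 by 0.24, both without a call. Regions 36 and 169, also of 9 probes, were called higher. Of the 119 regions of 8 or more probes 39 were called higher, and of the 15 regions of 3 probes 3 were, against 70 of all 229. Shares over all regions of the array with these sizes are not given, so no reading by size is drawn.

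Other stretches with long probes were also low in the ratio and had median differences above 0. In mm9, a window of 6 Mb on chromosome 7 (235 regions) and windows from 18.5 to 20.5 and 37.5 to 40.5 Mb of chromosome 9 (160 regions), which also hold olfactory receptor genes, had mean probe lengths of 52.6 and 55.1 bp and dim MeDIP shares of 33% and 48.5%. Their ratio levels were -0.58 and -0.80, and their median differences 0.20 and 0.31. Outside these windows, 1489 regions had probes of 55 bp or more on average, with 56.6 bp, a dim share of 47.4%, a ratio level of -1.12 and a median difference of 0.29. Higher ratios were called in 30.6% of the chromosome 2 cluster, 19.1% of the chromosome 7 window, 25% of the chromosome 9 windows and 25.3% of the other regions with long probes. These shares were not tested against each other.

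The input was lowest in the chromosome 2 cluster, at -1.34, against -0.37, -0.94 and -0.68 in the chromosome 7 window, the chromosome 9 windows and the other regions with long probes. With equal interquartile ranges, higher calls made up 10.9% of the chromosome 2 cluster, 4.26% of the chromosome 7 window, 7.5% of the chromosome 9 windows and 5.98% of the other regions with long probes. With only probes above background in both channels, the shares were 2.48%, 8.16%, 4.67% and 11.8% in the same order, so that the cluster had the lowest of the 4.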

How the data were processed

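Per the labels' protocols, each of the 6 Agilent arrays carried MeDIP DNA (Cy5, red) and input DNA (Cy3, green). Per the file headers, positions are in mm9, and the authors' scans went through Feature Extraction 11.0.1.1 under protocol ChIP_1100_Jul11. The deposited processed signals are background-subtracted intensity values scaled by a linear dye factor. Their log10 ratio in the deposited files equalled that of the processed signals within 0.0001 at 98.5% to 99.6% of spots. The authors' deposited table of the series holds a score per probe that correlated at 0.866 to 0.91 with the log2 ratio used here. Its direction is therefore the same, while its medians per array were 0.0431 to 0.0607 and its scale and centring are not known. The steps behind it are not given in the sources used here.

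Values were log2 of red over green processed signal, and log2 of each channel, without spots marked as outliers (0.895% of the cluster's 9726 spots) and with each array centred on its median. No spot of the cluster was saturated. Probe values were averaged per region, and each group needed values on at least 2 arrays. The two-sided comparisons used limma 3.58.1 (R 4.3.3) with Benjamini-Hochberg adjustment over all regions or probes of the array. The fit was also run on simulated normal values with planted shifts. That simulation had no slide effect, no unequal spread of the arrays and no detection floor, so it does not bear on these. The number of arrays limits the precision.

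Regions named were, among those past the threshold in the ratio, the 8 largest in each direction; the 4 highest and the 4 lowest in level; the 2 with the most probes; and the 3 largest called on each channel. A region with no spot of a group above background in a channel was given no difference. The members, lists and rules were chosen with earlier results of these data known. Alternatives were normexp background correction (offset 50), equal interquartile ranges, quantile and loess normalization, the deposited table, filters on dim probes, outlier spots kept, a replicate or a slide block, array weights, a robust prior, a gap of 300 or 1000 bp, probe medians, a threshold of 0.1 and leaving out each array. Keeping only positive and significant spots, and equal interquartile ranges of each channel, were added after seeing the data. The deviations of same-numbered arrays of the groups correlated at -0.145, 0.278 and 0.329, against -0.378 to 0.217 for arrays of different number. These values do not settle whether the replicate numbers pair the samples, and the main fit did not pair them. Sequences are from RefSeq (GRCm38.p6), read with Python 3.11.15, and figures were drawn with matplotlib 3.10.9.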

Additional observations from a re-analysis of the deposited data

How the results depend on the processing

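The direction of the cluster's median difference (0.35) held under every alternative run, and its size did not. It was 0.12 with normexp, 0.15 with equal interquartile ranges, 0.16 with quantile normalization, 0.018 in the authors' deposited table, 0.074 with probes above background in both channels and 0.19 with positive and significant spots only, and 0.27 to 0.43 with 1 array left out. The median level of -0.91 was -0.39 with normexp, -1.14 with probes above background in the input and -0.50 with both channels above background. The 70 higher and 1 lower calls by limma were 25 and 1 with equal interquartile ranges, 15 and 1 with quantile normalization, 3 and 2 in the deposited table, 30 and 1 with the input above background, 3 and 4 with both channels above background, 12 and 0 with positive and significant spots, 114 and 4 with array weights, 27 and 0 with the median of the probes, 73 and 0 with a gap of 1000 bp, 117 and 1 at a threshold of 0.1, and 0 and 0 with slide as a random block. Leaving out 1 array gave 0 to 65 higher and 0 to 1 lower. All 15 quantile calls and 33 of the 47 normexp calls were among the 70.

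The 222 higher and 19 lower probes were 103 and 32 with equal interquartile ranges, 94 and 27 with quantile normalization, 35 and 32 in the deposited table, 130 and 23 with the input above background, 54 and 24 with both channels above background, 265 and 39 with normexp, 14 and 0 with slide as a random block, and 39 to 212 higher and 0 to 22 lower with 1 array left out. Higher calls over all probes were 5.12% here, 1.72% with equal interquartile ranges, 1.28% with quantile normalization, 1.2% in the deposited table, 5.83% with the input above background, 6.38% with both, 8.02% with normexp and 0.141% with slide as a random block. For the regions of the whole array, the split of higher and lower calls was 5.61% and 1.81% here, 4.55% and 3.96% with normexp, 2.31% and 2.13% with equal interquartile ranges, 1.11% and 1.09% with quantile normalization, 0.97% and 1.54% in the deposited table, 4.18% and 1.48% with the input above background, 3.29% and 3.21% with both channels above background, 1.69% and 0.731% with positive and significant spots, 18.3% and 12.1% with array weights, 2.09% and 1.16% with the median of the probes, 6.04% and 1.8% with a gap of 1000 bp, 12.3% and 5.38% at a threshold of 0.1, and 0 regions with slide as a random block or without any inulin array. The 5 input calls were 0 with normexp, 4 with quantile normalization and 12 with equal interquartile ranges. They were 0 with slide as a random block and with any 1 array left out. Over all regions, input calls were 0.385% higher and 0.381% lower with normexp and 0.319% and 0.691% with quantile normalization. With equal interquartile ranges they were 1.94% and 1.43%. MeDIP had 0 calls in the cluster under each alternative run, with 45 higher at an unadjusted p under 0.05 in the main limma fit. The dim MeDIP share of 57.4% was 26.6% when counted as spots not positive and significant. At chr2:86154950-86156616 the difference was -0.365 with both channels above background, the opposite of 0.12. Of the 9 called regions named with a difference, all 9 lost the call with slide as a random block and without each inulin array, 8 in the deposited table, 6 with the median of the probes and 3 with equal interquartile ranges, and none turned its sign in these. The causes were not tested.

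Replicate numbers 1, 2 and 3 gave correlations of -0.145, 0.278 and 0.329 between the deviations of same-numbered arrays. With the replicate number as a block, 103 regions were higher and 1 lower, against 9.45% and 2.51% of all regions. At single probes 262 were higher (16.4%) and 20 lower under this block, against 6.07% and 2.6% of all probes. On the input and MeDIP channels it left 0 regions called, in the cluster and over all regions of the array alike.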

Other observations

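Across the 229 regions, the region ratios of the inulin arrays correlated with each other at 0.944 to 0.959 (Pearson), those of the obesity arrays at 0.876 to 0.953, and those of an inulin with an obesity array at 0.774 to 0.913. The lowest value was between inulin array 3 and obesity array 2. The correlations are across regions that share the same arrays and carry no test. Within a region, single probes spread widely around the region's value, with a median SD of 0.94 among the probe ratios of a region, against an SD of 0.53 among the 229 region levels. The level of MeDIP followed that of the input across the regions, at a Pearson r of 0.81.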
